A study of Mus musculus with 4 samples.

Results

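The genes described here are 8 transcriptional regulators of the hematopoietic stem cell, Gata2, Hlf, Erg, Lmo2, Tal1, Lyl1, Mycn and Prdm16. They were taken as a list of mouse symbols, and each symbol matched a single Ensembl identifier among the 45232 in the gene count files. Their RNA was measured by sequencing in mouse acute myeloid leukemia driven by MLL-AF9, a fusion oncoprotein. The sorted cells were leukemic granulocyte-macrophage progenitors (L-GMPs), which the labels also call primary leukemic stem cells. They were taken from secondary recipient mice when the animals died, through a gate for cells positive for CD34, CD16/32, Sca-1 and c-Kit that also carried tdTom and GFP. The groups were Scr (2 libraries, 1 per mouse) and miR-99 KD (2 libraries, 1 per mouse). Both groups carried MLL-AF9, and the meaning of Scr and of KD is not written out in the labels. No source used here gives the strain, the age or the vectors that carry the reporters, or says if a single primary leukemia was the donor for all 4 mice. The comparison asks how the level of these regulators differs between the libraries labelled Scr and miR-99 KD.

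Stem cell identity in blood depends on a small set of DNA-binding factors that occupy the same enhancers and keep each other expressed. GATA2 is a zinc finger factor that binds GATA motifs. TAL1 and LYL1 are related basic helix-loop-helix factors, which bind E-boxes as dimers with E proteins such as TCF3 and TCF12. LMO2 does not bind DNA itself and joins these factors through the adaptor LDB1 and its SSBP partners. ERG is an ETS factor and works in the same assembly with FLI1 and RUNX1. HLF is a PAR bZIP factor that marks immature stem cells, PRDM16 is a zinc finger protein needed to maintain them, and MYCN shares the role of MYC in their growth and survival. In leukemia with MLL fusions, part of this program persists in cells that otherwise resemble committed myeloid progenitors.

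The microRNAs of the miR-99 family share a seed, the stretch (bases 2 to 8, in capitals) through which a microRNA pairs with its targets. The mature sequences, from RefSeq on GRCm38.p6, are given because the labels name a group after this microRNA, whose level was not measured in these files.
miR-99a-5p: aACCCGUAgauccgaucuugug
miR-99b-5p: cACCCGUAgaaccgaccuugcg
miR-100-5p: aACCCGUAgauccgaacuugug
These 3 sequences carry the same seed, and the labels do not say which of them is meant. The match to the seed in a transcript is TACGGGT, or ACGGGTA where an A follows the match to bases 2 to 7. None of the 8 genes held either in its longest 3′ UTR (GENCODE M21, GRCm38), where 1.90% of 21045 genes with a 3′ UTR did. The shorter match ACGGGT was found in Hlf and in Prdm16, against 5.46% of all genes with a 3′ UTR. Both UTRs are long, 4223 bases in Hlf and 4785 bases in Prdm16, where the median over all genes is 960 bases. The short matches, in capitals, are shown with their flanks on the transcript strand because no longer match was present in any of the 8 genes.
Hlf, chr11:90338877-90338902, minus strand: caaaagcacaaaACGGGTtttagtca
Prdm16, chr4:154319934-154319959, minus strand: gcagaggaatccACGGGTcccaccca
A match is a description of the sequence, and binding was not measured.

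Gene counts per library ran from 38458519 to 42674407. The library Scr 1 stood apart from the other 3. It had a count in 28573 genes, against 21372 to 24038 in the others. Olfactory receptor genes, a class silent in blood, summed to 51.9 CPM in it, against 4.78 to 15.0 CPM (CPM are counts scaled to the gene count total of the library). Reads outside annotated genes made up 19.8% of its entries, against at most 14.9% in the others. The gate genes Cd34 and Fcgr3 lay between 283 and 482 CPM in all 4 libraries. Kit, which encodes the c-Kit of the gate, had 453, 424, 298 and 232 CPM in Scr 1, Scr 2, miR-99 KD 1 and miR-99 KD 2, the order of libraries used below. Both miR-99 KD libraries were below both Scr libraries for Kit, as for 25.3% of the 15591 genes tested. The log2 fold change of Kit was -0.67 ± 0.19 (adjusted p 0.580 in edgeR). The part of this Kit difference in the levels of the 8 regulators was not tested. Ly6a, which encodes the Sca-1 of the gate, had 4, 8, 5 and 4 counts, which goes against the positive Sca-1 gate that the labels state.

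Lmo2, Lyl1, Gata2 and Erg were well expressed in these cells, Hlf was low, and Prdm16, Mycn and Tal1 were nearly silent. Per kilobase of exon, Lmo2 had the highest level, 205 ± 77.5 CPM per kilobase (mean ± SD over the 4 libraries). Lyl1 followed with 12.1 ± 2.02, Gata2 with 8.32 ± 4.80 and Erg with 8.22 ± 1.72 CPM per kilobase. Hlf had 0.327 ± 0.117 CPM per kilobase. Prdm16, Mycn and Tal1 had 0.0439 ± 0.0693, 0.0212 ± 0.0298 and 0.0154 ± 0.00618 CPM per kilobase. The lowest library of Lmo2 (113 CPM per kilobase) was above the highest of Lyl1 (14.7). Lyl1 and Gata2 overlapped over the libraries, as did Gata2 and Erg, so their order does not exceed their spread, while the lowest value of Lyl1 (10.4) was above the highest of Erg (9.10). With the length of the longest transcript in place of all exons, Gata2 had 12.6 and Lyl1 12.1 CPM per kilobase, which exchanges these neighbours. Erg and Hlf did not overlap (lowest 5.64 and highest 0.415), and the lowest Hlf library (0.158) was just above the highest Prdm16 library (0.148). The last 3 genes overlapped with each other.

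**Figure D1:**
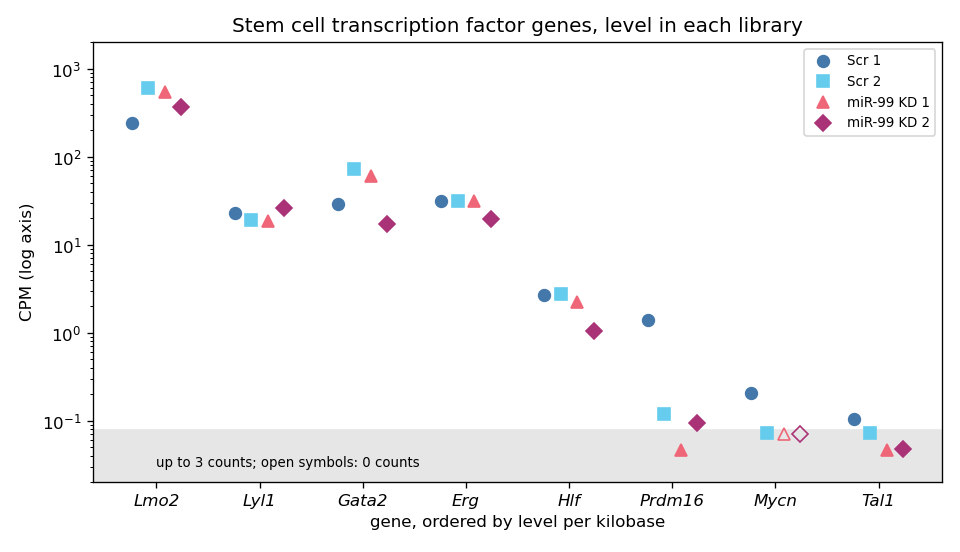
Level of each of the 8 genes in each library, in CPM on a log axis, with genes ordered by mean level per kilobase. The grey band covers values up to 3 counts and open symbols stand for 0 counts; Lmo2 lies between 245 and 611 CPM in the 4 libraries, and Tal1 and Mycn lie at or near the band.

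Lmo2, the bridging subunit of the complex (ENSMUSG00000032698, chromosome 2, 103957986 to 103981878 on GRCm38), had 245, 611, 549 and 368 CPM. Gata2 (ENSMUSG00000015053, chromosome 6, 88193891 to 88207032) had 29.3, 72.5, 60.6 and 17.3 CPM. In both genes Scr 2 and miR-99 KD 1 were the 2 high libraries and Scr 1 and miR-99 KD 2 the 2 low ones, so the groups overlapped. Within Scr, the library Scr 2 was 2.50 times as high as Scr 1 for Lmo2 and 2.48 times for Gata2. Within miR-99 KD, the first library was 1.49 times as high as the second for Lmo2 and 3.51 times for Gata2. The log2 fold changes of miR-99 KD over Scr were 0.13 ± 0.54 (SE) for Lmo2 and -0.35 ± 0.79 for Gata2, with adjusted p of 0.951 and 0.902 in edgeR's quasi-likelihood test with Benjamini-Hochberg adjustment over the 15591 genes tested. The standard errors exceed the fold changes, and the sign rests on single libraries. Without Scr 1, the library with the high olfactory receptor counts, the values were -0.36 for Lmo2 and -0.86 for Gata2, and without Scr 2 they were 1.08 and 0.59.

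Erg, the ETS factor (ENSMUSG00000040732, chromosome 16, 95359169 to 95586593), had 31.5, 31.5, 31.4 and 19.6 CPM. The values of 3 libraries were nearly equal, and miR-99 KD 2 was the low one. Hlf (ENSMUSG00000003949, chromosome 11, 90336536 to 90390895) had 2.65, 2.77, 2.25 and 1.06 CPM, from 102, 116, 96 and 45 counts. Both miR-99 KD libraries were below both Scr libraries, and again miR-99 KD 2 was the lowest. The log2 fold changes were -0.25 ± 0.30 for Erg and -0.66 ± 0.45 for Hlf, with adjusted p of 0.820 and 0.735 in edgeR. Without miR-99 KD 2 they were 0.0945 for Erg and -0.17 for Hlf, and without miR-99 KD 1 they were -0.59 and -1.26, so the size for both genes rests on miR-99 KD 2.

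Lyl1 (ENSMUSG00000034041, chromosome 8, 84701457 to 84704715) varied least among the 5 best expressed genes, with 22.9, 19.1, 18.8 and 26.5 CPM. Its groups overlapped, and miR-99 KD 2, the lowest library for Gata2, Hlf and Erg, was here the highest. The log2 fold change was 0.17 ± 0.24, with an adjusted p of 0.853 in edgeR, and it was -0.0496 without miR-99 KD 2. The highest library exceeded the lowest 1.41 times for Lyl1, 1.61 times for Erg, 2.50 times for Lmo2, 2.62 times for Hlf and 4.20 times for Gata2. An exon of Lyl1 overlaps the end of Nfix on the opposite strand by 4 bases.

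Of the 8 genes, 5 passed the filter on low counts and were tested. In edgeR 0 of the 5 passed an adjusted p of 0.05, where 0% of all 15591 genes did. With an unadjusted p under 0.05 there were 0 of them in edgeR, against 5.23% of all genes tested lower and 2.66% higher in miR-99 KD. DESeq2 called 0 of the 5, against 1.67% of all genes tested (261 genes), and limma-voom called 0. Hlf was the 1 gene of the 5 with groups that did not overlap, lower in miR-99 KD, where 25.3% of all genes tested had this pattern. The edgeR test thus called none of the 5 differences, nor any other gene. The standard errors of 0.24 to 0.79 on the log2 scale, from 2 mice per group, leave room for differences in either direction. In bulk RNA, fewer cells with a transcript and less transcript per cell cannot be told apart.

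**Figure D2:**
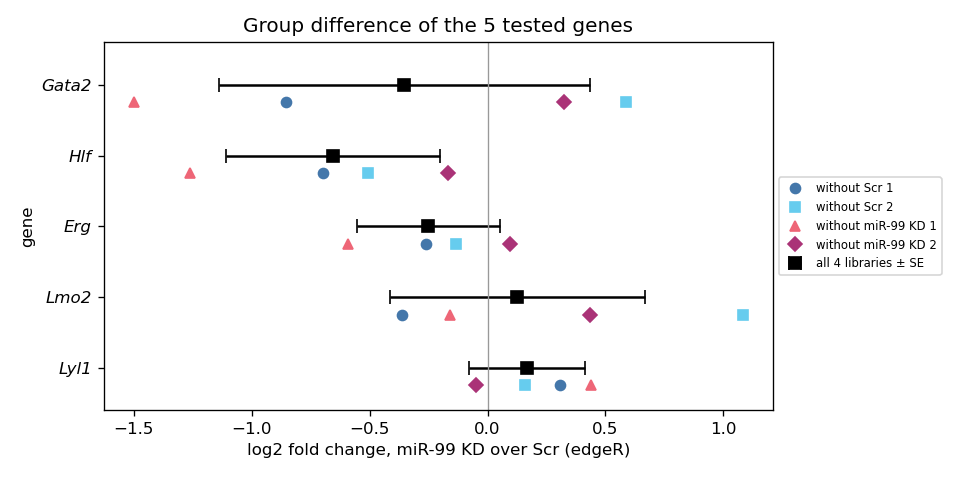
Log2 fold change of miR-99 KD over Scr for the 5 tested genes, with all 4 libraries (black squares, bars are 1 SE) and with each library left out in turn (coloured symbols). Gata2 spans -1.50 to 0.59 over the left-out libraries, and Hlf, whose groups do not overlap, spans -1.26 to -0.17.

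Tal1, Mycn and, outside Scr 1, Prdm16 had 8 counts or fewer per library, where the floor of 3 counts is 0.0703 to 0.0780 CPM. Tal1 (ENSMUSG00000028717, chromosome 4, 115056426 to 115071755), a founding member of the stem cell complex, had 4, 3, 2 and 2 counts. The ratio of Scr over miR-99 KD was 1.86, with a 95% counting interval of 0.472 to 8.65, so no difference was detectable at this depth. Mycn (ENSMUSG00000037169, chromosome 12, 12936093 to 12941914) had 8, 3, 0 and 0 counts. Taking 3 counts as the limit of a count of 0, the miR-99 KD libraries allow up to 0.0703 and 0.0705 CPM. The Scr mean of Mycn was 1.99 times this floor per library. That ratio rests on Scr 1, since it was 1.02 without Scr 1 and 2.95 without Scr 2. It leaves out the counting error in Scr, so it is not a lower bound of the difference. The 95% Poisson interval was 0.0898 to 0.410 CPM in Scr 1 and 0.0148 to 0.209 CPM in Scr 2.

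Prdm16 (ENSMUSG00000039410, chromosome 4, 154316125 to 154636873) had 53, 5, 2 and 4 counts. Its level in Scr 1 was 1.38 CPM (95% Poisson interval 1.03 to 1.80), and the other libraries had 0.0469 to 0.119 CPM, so 1 library carried nearly all of its counts. The ratio of Scr over miR-99 KD was 10.3 (95% counting interval 4.44 to 29.1) and 1.70 without Scr 1 (0.409 to 6.67), and these intervals cover counting error only. Scr 1 held the highest count for all 3 of these genes, and also for 60.8% of the 15071 genes that had a count and did not pass the filter. Both miR-99 KD libraries were below both Scr libraries in all 3, where 19.6% of those 15071 genes had this pattern. In edgeR without a filter, where 0.0294% of 30662 genes with a count passed, the adjusted p was 0.852 for Tal1 and 0.775 for Mycn and Prdm16. The part of the high background in Scr 1 in these 3 low genes was not tested. Of the 9321 exon bases of Prdm16, 109 overlap B230104I21Rik on the opposite strand, and counts on those bases cannot be told apart without a stated strand setting.

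Mycn and Tal1 had relatives that were well expressed in the same cells. The list of relatives held 16 genes, among them the members Lyl1 and Tal1, and 11 of the 16 were tested. Myc had 580, 465, 545 and 438 CPM, where Mycn had at most 0.208 CPM. Its mean level of 187 CPM per kilobase stands beside 205 for Lmo2, and its log2 fold change was -0.025 ± 0.19 (adjusted p 0.971 in edgeR). Lyl1 was expressed where its relative Tal1 was not, and Tal2 had 0, 0, 0 and 3 counts.

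Mecom, the closest relative of Prdm16 and a zinc finger oncogene of myeloid leukemia, had 300, 2, 334 and 222 counts. Scr 2 thus had almost none and the other 3 libraries had 5.22 to 7.83 CPM. The difference lay within the Scr group, and the log2 fold change was 0.86 ± 1.65 (adjusted p 0.885 in edgeR). Without Scr 1, which leaves Scr 2 as the lone Scr library, the value was 7.06 with an adjusted p of 2.03e-12, which compares Scr 2 with the miR-99 KD libraries.

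Among the other families, Fli1 had 53.7 CPM per kilobase against 8.22 for its relative Erg. Its 201, 169, 189 and 191 CPM differed little between libraries. Tef had 5.45 CPM per kilobase against 0.327 for its relative Hlf, with 38.9, 64.5, 46.3 and 21.8 CPM. Its libraries had the order seen for Gata2, with Scr 2 the highest and miR-99 KD 2 the lowest. Gata1, the erythroid GATA factor, had 35, 25, 26 and 6 counts and Gata3, the T cell factor, had 6, 0, 2 and 1, so Gata2, at 8.32 CPM per kilobase against 0.231 and 0.0142, had the highest level of these 3 GATA genes. Lmo1 had 9, 47, 102 and 146 counts, with both miR-99 KD libraries above both Scr libraries, and a log2 fold change of 2.10 ± 0.80 (adjusted p 0.634 in edgeR), where 18.9% of all genes tested had both miR-99 KD libraries above both Scr libraries. Lmo4 had 44.6 to 51.8 CPM. Of the 11 relatives tested, 8 lay above and 3 below a log2 fold change of 0. Their median was 0.17, which is the value of the member Lyl1, against a median of -0.01 over all genes tested (7645 positive and 7946 negative). None passed in edgeR or DESeq2, and 0 had an unadjusted p under 0.05 in edgeR.

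**Figure D3:**
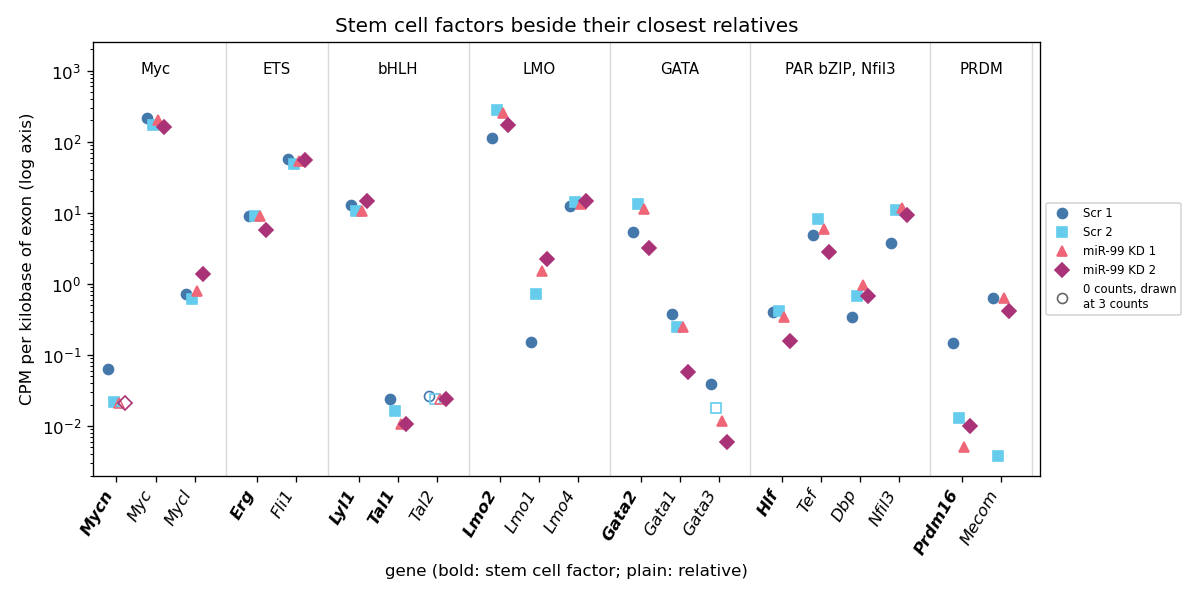
Level per kilobase of exon, on a log axis, of the 8 regulators (bold) and of relatives of each family, in each library. Open symbols are 0 counts drawn at the value of 3 counts; Mycn and Tal1 lie far below Myc and Lyl1, and Scr 2 is the lone low library of Mecom.

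Lyl1 had 12.1 and Tal1 0.0154 CPM per kilobase, so these related genes lie far apart in level. For this reason the sequences before their annotated starts are shown. Each is the 250 bases upstream of a RefSeq start on GRCm38.p6, with matches to GATAA (GATA factors), GGAAG (ETS factors) and CANNTG (E-box) on either strand in capitals, and no matches overlap.
Lyl1, chr8:84701207-84701456, plus strand: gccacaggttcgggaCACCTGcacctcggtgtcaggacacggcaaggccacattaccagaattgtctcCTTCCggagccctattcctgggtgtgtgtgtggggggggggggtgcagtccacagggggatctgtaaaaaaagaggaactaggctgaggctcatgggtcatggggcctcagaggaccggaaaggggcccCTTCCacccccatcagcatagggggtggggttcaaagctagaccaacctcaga
Tal1, chr4:115056176-115056425, plus strand: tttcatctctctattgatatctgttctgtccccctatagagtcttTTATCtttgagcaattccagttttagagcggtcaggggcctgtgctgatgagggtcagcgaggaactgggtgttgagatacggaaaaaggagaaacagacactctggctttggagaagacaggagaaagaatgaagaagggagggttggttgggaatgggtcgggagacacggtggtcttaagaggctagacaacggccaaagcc
The Lyl1 window held 2 matches to GGAAG, 1 to CANNTG and 0 to GATAA, and the Tal1 window held 1 to GATAA and 0 to the others. RefSeq gives another start of Tal1, whose window (chr4:115057561-115057810) held 1 match to GGAAG and 0 to the others, so the matches depend on the start taken. Of all 32851 windows of this length, 22.6% held GATAA, 64.1% GGAAG and 66.2% CANNTG. Binding was not measured, and the counts do not show which start was used.

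Genes for the proteins that join these factors in complexes varied over the libraries, and several shared the library order of Lmo2. Ldb1, the adaptor that dimerizes the complex, had 11.0, 39.3, 33.7 and 17.5 CPM. Tcf3, the E protein partner of LYL1, had 50.9, 187, 166 and 110 CPM. Both had their libraries in the order of Lmo2, with Scr 2 highest, then miR-99 KD 1, miR-99 KD 2 and Scr 1. Ssbp4, of the family that binds LDB1, and the corepressor genes Kdm1a and Ctbp1 shared this order. So did the E protein gene Tcf12 and the GATA cofactor gene Zfpm1, the latter from 2, 17, 11 and 5 counts. In all, 7 of 17 tested partners (41.2%) had the order of Lmo2, against 7.22% of all genes tested. This order was noticed after the values were seen, so the count is a description.

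Measures of library quality and base composition also differed between these libraries. Scr 1, the lowest library for Lmo2 and these 7 partners, was the one with the high share of reads outside genes. Among the tenth of genes with the highest GC content, the median log2 difference of Scr 2 minus Scr 1 was 0.10. That of miR-99 KD 1 minus miR-99 KD 2 was 0.23. Over all genes tested with a GC value these medians were -0.0058 and 0.044. In the tenth with the lowest GC content they were -0.00087 and -0.092. Gata2 (58.2% GC) differed by 1.45 and 1.84 in these pairs of libraries, Lmo2 (53.9%) by 1.46 and 0.61, and Lyl1 (62.6%) by -0.12 and -0.46. The part of library quality in the pattern was not tested.

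**Figure D4:**
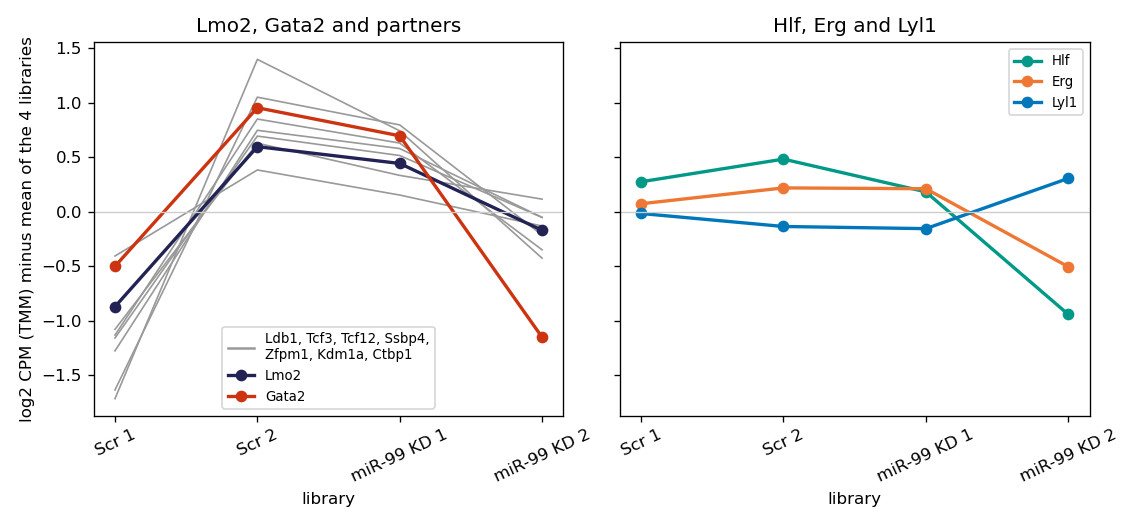
Log2 CPM with TMM factors of each gene in each library, relative to its mean over the 4 libraries; lines join the points of a gene and carry no order in time. Lmo2 and the 7 partners named in the key are lowest in Scr 1 and Gata2 is lowest in miR-99 KD 2 (left), while Hlf and Erg are lowest and Lyl1 highest in miR-99 KD 2 (right).

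Between the groups, the 17 tested of 18 partners lay above a log2 fold change of 0 in 13 cases and below it in 4, and their median was 0.16 (-0.10 without Scr 1). None passed in edgeR. At an unadjusted p under 0.05 in edgeR, 2.66% of all genes tested were higher and 5.23% lower, and 2 partners were higher and 0 lower. These were Tcf4, an E protein, with 3.82, 2.22, 20.0 and 38.6 CPM (3.34 ± 0.46, adjusted p 0.356 in edgeR and 1.06e-08 in DESeq2), and Ssbp2, with 10.9, 9.67, 15.3 and 24.3 CPM (0.996 ± 0.29, adjusted p 0.583 in edgeR). Both miR-99 KD libraries were above both Scr libraries for both genes, as for 18.9% of all genes tested. Next by p was Gfi1b, a repressor used by megakaryocyte and erythroid cells, with 34, 27, 34 and 68 counts (0.70 ± 0.47, adjusted p 0.726 in edgeR). Runx1 had 53.9, 113, 139 and 102 CPM.

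Other stem cell genes were likewise divided between expressed and nearly silent ones, and genes for surface proteins were found on both sides. Of 26 other stem cell genes 16 were tested, 8 of them above and 8 below a log2 fold change of 0, and their median was -0.04 (-0.21 without Scr 1). None passed in edgeR or DESeq2. In edgeR 2 higher and 4 lower genes had an unadjusted p under 0.05, against 2.66% higher and 5.23% lower of all genes tested. The 3 with the smallest p were Hoxa9 (-0.92 ± 0.19), Meis1 (-0.61 ± 0.16) and Hoxb4 (2.33 ± 0.66), homeobox genes of stem and leukemic cells, with adjusted p of 0.466, 0.580 and 0.580 in edgeR. Hoxb4 had 4, 4, 29 and 13 counts. The surface genes Kit and Cd34, both selected by the gate, had 39.5 and 45.2 CPM per kilobase. The surface genes Procr (5, 1, 2 and 0 counts), Slamf1 (10, 3, 2 and 0) and Tek (5, 6, 0 and 1) had at most 10 counts in any library.

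The summed level of granulocyte genes had the reverse of the library order of Hlf, though Hlf was nearly equal in Scr 1 and Scr 2 (102 and 116 counts). This match of order was not a planned comparison. The share of all genes with the order of Hlf was not computed, so the match is a description. The 18 genes of granulocyte maturation summed to 9682 and 5784 CPM in Scr and to 15040 and 33050 CPM in miR-99 KD. Scr 2 had the lowest sum and the highest Hlf, and miR-99 KD 2 had the highest sum and the lowest Hlf, Erg and Gata2. Erg differed little between the 3 other libraries, Lyl1 was highest in miR-99 KD 2, and Lmo2 was lowest in Scr 1, so these genes did not share the order of Hlf. In this list 16 genes lay above and 2 below a log2 fold change of 0 (median 1.30). None passed in edgeR, 12 were higher at an unadjusted p under 0.05, and DESeq2 called 7 higher. The 3 with the smallest p were Mpo (2.59 ± 0.40), Ltf (4.94 ± 0.77) and Ngp (3.47 ± 0.85), with adjusted p of 0.421, 0.421 and 0.532 in edgeR. The part of more mature cells in the levels of the 8 regulators was not tested.

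Markers of other lineages that use these factors were read in the same libraries. For mast cells and basophils, which depend on Gata2, 13 markers summed to 116 and 121 CPM in Scr and to 164 and 94.2 CPM in miR-99 KD, and Tpsb2, Cma1 and Il4 had 0 counts in all libraries. Of 5 tested, 3 were positive and 2 negative (median 0.38), led by Mitf, Cpa3 and Ms4a2 with adjusted p of 0.696 to 0.754 in edgeR. The 14 megakaryocyte and platelet markers summed to 65.1 and 72.6 CPM in Scr and to 75.1 and 36.1 CPM in miR-99 KD, with Treml1 at 0 counts. Of 6 tested, 1 was positive and 5 negative (median -0.39, but 0.0669 without Scr 1), led by Vwf, Gp9 and Gp1ba with adjusted p of 0.585 to 0.848.

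The sum of 14 endothelial and stromal markers was 614 and 548 CPM in Scr and 354 and 278 CPM in miR-99 KD. Most of it came from Vcam1 (476, 430, 201 and 137 CPM) and Pecam1 (123, 111, 149 and 135 CPM), genes that blood cells can also express. The defining endothelial gene Cdh5 had 2, 1, 0 and 0 counts. Of 8 tested, 1 was positive and 7 negative (median -0.66, but 0.41 without Scr 1), led by Vcam1, Sparc and Vwf with adjusted p of 0.463 to 0.585. The 15 erythroid markers summed to 200 and 242 CPM in Scr and to 204 and 322 CPM in miR-99 KD. Most of this sum came from Tfrc (114, 130, 154 and 199 CPM). Of 14 tested, 4 were positive and 10 negative (median -1.26, and -2.08 without Scr 1). The 3 with the smallest p were Ermap, Car1 and Slc4a1, with adjusted p of 0.466 to 0.552. Ermap had 21, 48, 3 and 4 counts and Car1 had 19, 23, 3 and 5. The 4 positive markers were Tfrc and the hemoglobin genes Hba-a1, Hbb-bs and Hbb-bt. Their log2 fold changes, in that order, were 0.58 ± 0.21, 0.14 ± 0.51, 0.20 ± 0.47 and 0.078 ± 0.51.

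The 17 lymphoid markers summed to 111 and 95.4 CPM in Scr and to 76.3 and 101 CPM in miR-99 KD, most of it from Cd79b. Of 8 tested, 1 was positive and 7 negative (median -1.08), led by Rag2, Klrb1c and Lck with adjusted p of 0.398 to 0.580. All adjusted p of these marker lists are from edgeR, in which 0 of their members passed. Unadjusted p values under 0.05 in edgeR went to 1 higher and 5 lower erythroid markers. Lower at this p were also 3 endothelial and stromal, 3 lymphoid and 1 megakaryocyte marker. The last is Vwf, which is also 1 of the 3 endothelial and stromal ones. Over all genes tested, 2.66% were higher and 5.23% lower at this p. DESeq2 called 1 erythroid, 1 endothelial and stromal and 2 lymphoid markers lower, against 148 of all 15591 genes tested.

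By profile over the 4 libraries, the genes most like Hlf among 9049 genes with a mean of at least 10 CPM were Galnt6, Flna and Abcc1. Their root mean square distances to Hlf, in centred log2 CPM, were 0.0270, 0.0279 and 0.0279. The genes most like Erg were Zfyve26, Mtor and Phrf1, at 0.0147, 0.0195 and 0.0199. Mtor, which encodes a growth kinase and is a described target of the miR-99 family, had 72.8, 71.4, 71.7 and 46.0 CPM, so it shared with Erg 3 nearly equal libraries and a low miR-99 KD 2. With 4 libraries many genes share a profile by their libraries alone, and the distances describe these samples.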

How the data were processed

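RNA of sorted L-GMPs was sequenced after SMARTer amplification, per the labels' protocols. The authors deposited unscaled counts of reads for each Ensembl gene, per the file headers and the whole numbers in the files. The submitters' processing notes name STAR, Picard, HTSeq, DESeq2 and the build mm9; the annotation release and the strand setting were not given in the sources used here. The 5 categories that name no gene held 43.7% to 49.7% of entries and were left out. Symbols (44585 of 45232 identifiers), lengths, UTRs and coordinates came from GENCODE M21 on GRCm38 by identifier, with no conversion of coordinates.

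CPM used the gene count totals. miR-99 KD was compared with Scr in edgeR 4.0.16 (R 4.3.3) by the two-sided quasi-likelihood test on counts, with TMM factors (0.969 to 1.07), the default filter (minimum count 10), Benjamini-Hochberg adjustment over 15591 genes and a threshold of 0.05. The standard error is derived from the test statistic, with 2 residual degrees of freedom. Overlap of groups was judged on CPM with TMM factors. DESeq2 1.42.0 and limma-voom 3.58.1 were alternatives, beside other scalings, filters, a replicate block and each library left out. The script was tested on simulated data.

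The members and lists were chosen with earlier results of these data known. Some genes, among them Fli1, Runx1, Gfi1b, Mecom and Vwf, are on more than 1 list, so the counts and medians of the lists are not independent. Named genes were the 8 members, the 3 of each list with the smallest p, relatives and partners by level, and, for the 2 members with the smallest p, the 3 nearest profiles. Genes of the stem cell list given by their low counts, and erythroid markers given by their positive sign, were chosen after their values were seen.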

Additional observations from a re-analysis of the deposited data

How the results depend on the processing

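No member was called under any alternative, and 54 of 60 alternative values of the 5 tested genes kept their sign (adjusted p 0.313 to 0.998). Hlf kept its sign in 12 of 12. Its groups did not overlap, so leaving out a library could hardly reverse its sign, and the other settings refit the same 4 libraries. Reversed signs came from leaving out 1 library: Lmo2 (-0.36 without Scr 1, -0.16 without miR-99 KD 1), Gata2 (0.59 without Scr 2, 0.33 without miR-99 KD 2), Erg (0.0945) and Lyl1 (-0.0496), both without miR-99 KD 2. Over the left-out libraries the ranges were -0.36 to 1.08 for Lmo2, -1.50 to 0.59 for Gata2, -0.59 to 0.0945 for Erg, -0.0496 to 0.44 for Lyl1 and -1.26 to -0.17 for Hlf. Calls over all genes were 0, but 23 with upper-quartile factors, 9 without a filter, 261 with DESeq2, and 0 to 294 over the left-out libraries (294 without Scr 1). The count of members with groups that did not overlap was 1, but 2 with upper-quartile factors. Without a filter it was 4 (Hlf, Tal1, Mycn and Prdm16), and with a library left out it was 2 to 4. There 1 library of a group remains and is assumed in the fits to vary like the other group. A group of 1 library also overlaps less easily. The shares over all genes were not computed for these settings, so these counts are not a result about the members.

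Same-numbered libraries deviated in opposite directions (correlation -0.43 across 15591 genes, which are not replicates), and nothing in the labels pairs the mice. The replicate block called 0 genes and 0 members. The crossed pairing, chosen after seeing the data, called 28 genes, 18 higher and 10 lower, and 0 members. Without Scr 1 the median log2 fold change was -2.08 for erythroid, 0.0669 for megakaryocyte, 0.41 for endothelial and stromal and -0.87 for lymphoid markers. The cause was not tested. The values of Mycn and Prdm16 without a Scr library were also chosen after seeing the data. Depth limits Tal1, Mycn and Prdm16, with 11 counts in all for Tal1 and for Mycn.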
